A study of Mus musculus with 4 samples.

Results

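Cygb, Penk, Islr, Lix1l, Cped1, Dlk1, Meis1 and Meis2 are 8 genes of connective tissue and mesenchyme, here followed across the sorted cell fractions of cultured embryonic mouse kidneys. They are 8 of the 18820 genes that could be named on the arrays. They were chosen by their log2 difference between the fractions on these same arrays, where earlier results had shown them far lower in reporter-bearing cells, so their levels and differences are a description and carry no test. A single probe set read each gene. The kidneys (B6.129P2-Lgr5tm1(cre/ERT2)Cle/J mice) came from embryos at about 14 days of gestation and had been kept in organ culture for about 10 days. Cells of both groups came from fluorescent kidneys with the Lgr5-EGFP-Ires-CreERT2 allele, a knock-in that places EGFP and a tamoxifen-inducible Cre under control of Lgr5, the gene of an R-spondin receptor. No Cre-inducing treatment is named in the labels. After digestion to single cells, flow cytometry separated a GFP-high fraction (2 arrays) from a GFP-negative fraction (2 arrays). The titles carry a kidney letter, and the arrays are called high-A and high-B in the GFP-high group and negative-B and negative-D in the GFP-negative group. What a letter stands for and how many embryos were pooled are not stated in the labels.

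The renal interstitium is the connective tissue between the tubules. In the embryo it arises largely from Foxd1-expressing stromal progenitors, surrounds the nephron progenitors and the branching ureteric bud, and gives rise to fibroblasts, pericytes and other mural cells. It signals to the epithelium through growth factors, retinoic acid and matrix proteins, while the epithelium of the nephron comes from a separate progenitor pool. The 8 genes play different parts. Penk encodes the precursor of the enkephalin opioid peptides, Islr a leucine-rich repeat protein of mesenchymal stromal cells also known as meflin, and Dlk1 a transmembrane protein with EGF-like repeats that is related to the Notch ligands. Cygb encodes cytoglobin, an intracellular globin of fibroblasts and stellate cells. Meis1 and Meis2 encode homeodomain transcription factors of the TALE class that act with Pbx and Hox proteins. Cped1 encodes a protein with a cadherin-like and a PC-esterase domain, and Lix1l a relative of Lix1.

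The deposited values are log2 levels, with medians over 35556 probe sets of 5.07 and 5.19 for the GFP-high group and 5.22 and 5.24 for the GFP-negative group. Lgr5, which checks the sort, averaged 10.39 in the first group and 6.35 in the second, and its 4 values did not overlap. Of 18820 genes tested with limma, 1520 (8.08%) had a higher and 2100 (11.2%) a lower level in GFP-high cells at a Benjamini-Hochberg adjusted p below 0.05, the threshold for every gene said to pass here. With every array centred on its median this split became 2122 higher and 1889 lower. Leaving out any 1 array gave 387 to 603 higher and 729 to 1148 lower genes. Leaving out an array leaves 1 array in its group, whose spread is then taken from the other group and from all genes, so a call lost there does not show a smaller difference. As a reference for background, the 95th percentile of the mean levels of 990 olfactory receptor genes was 4.24. The labels do not say whether arrays of a group came from separate animals, so p-values reflect no more than array-to-array spread, which can be technical, and precision is limited by the number of arrays. In such bulk samples, fewer cells of a type and less RNA per cell cannot be told apart.

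All 8 genes stood lower on both GFP-high arrays than on either GFP-negative array, and all 8 were at least 8-fold lower by the difference of means. The values of this contrast chose the genes, so nothing is read from that count. Among all genes 143 (0.76%) were at least 8-fold lower without overlap between the groups. The median log2 difference of the 8 genes, GFP-high minus GFP-negative, was -4.08, beside 0.051 for all genes. By size the genes formed 2 sets. Cygb, Penk, Islr, Lix1l and Cped1 were 16.6-fold to 19.3-fold lower, and Dlk1, Meis1 and Meis2 were 8.27-fold to 8.85-fold lower. Every one of the 8 remained above the background level of 4.24 on high-A and high-B.

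**Figure D1:**
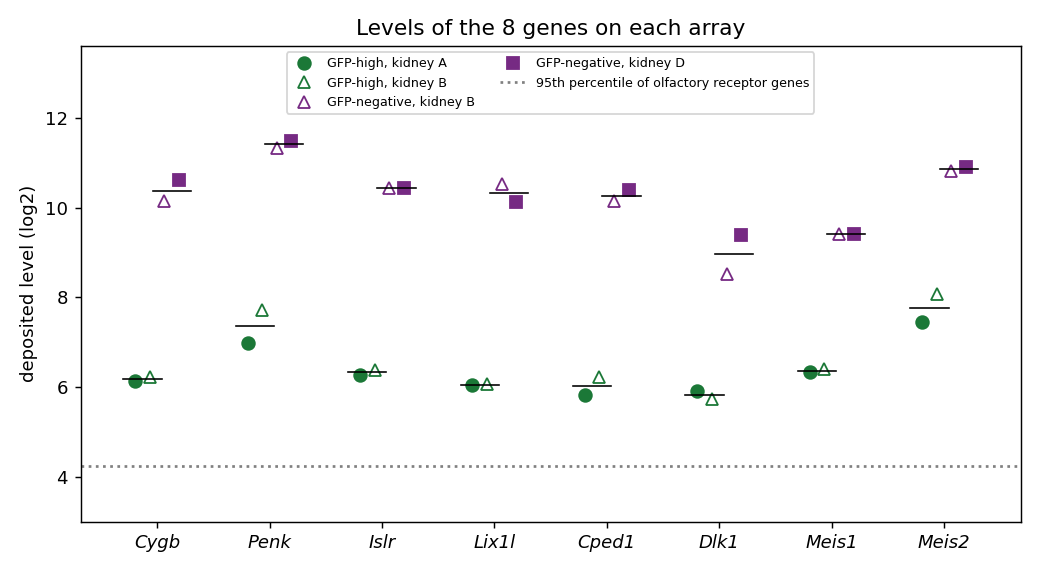
Deposited log2 level (vertical axis) of each of the 8 genes on the 4 arrays, with GFP-high arrays in green and GFP-negative arrays in purple. Short lines mark the mean of each group (n = 2) and the dotted line the olfactory receptor reference at 4.24. GFP-high values lie between 5.73 and 8.08, GFP-negative values between 8.53 and 11.48.

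The promoters of the 8 genes, all lower in GFP-high cells, were compared. The RefSeq promoter table (GRCm38.p6) held an entry for 6 of the 8, all but Cygb and Penk. Over the 250 bases before the start, 9 motifs were searched on both strands, and no match overlapped another. TGACAG, the core of Meis sites, was in 1 of 6 (Lix1l) and in 15.9% of all 32851 promoters. TGCGTCA, a variant of the cyclic AMP response element, was in 1 of 6 (Dlk1) and in 1.75% of all. TATAAA was in 1 (Meis2) and in 12.4%, GGGCGG in 2 (Lix1l, Cped1) and in 32.7%, and CCAAT in 3 (Lix1l, Meis1, Meis2) and in 33.8%. TGATTGAC, TGACGTCA, TGAGTCA and CACCTG, held by 0.691%, 1.55%, 4.46% and 17.2% of all promoters, were in none of these windows. No motif searched was in more than 3 of the 6. The Islr window had 1 CpG and 59.6% G and C, and the Meis1 window, with the same share of G and C, had 13 CpGs, beside medians of 6 CpGs and 52.4% over all promoters. The Lix1l window is printed whole, as that of the gene with the largest difference and the most matches, and a stretch of 30 bases stands for each of the other 5 genes. Each stretch holds the match nearest the start, or the bases next to the start for Islr, which had no match. The start is that of the promoter table, and for these 5 genes the printed stretch lies inside the span that the RefSeq gene table gives the gene, so other transcripts can begin further upstream. Capitals mark matches on either strand, and each sequence reads 5′ to 3′ on the strand of the gene.
Lix1l, chr3:96600883-96601132, plus strand: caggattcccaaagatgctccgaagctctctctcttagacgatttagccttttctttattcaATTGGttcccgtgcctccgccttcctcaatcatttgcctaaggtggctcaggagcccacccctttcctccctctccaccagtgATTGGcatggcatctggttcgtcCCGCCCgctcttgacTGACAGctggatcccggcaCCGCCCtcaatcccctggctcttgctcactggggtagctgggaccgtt
Islr, chr9:58158555-58158584, minus strand: ttctgtgcagtgcggggggaagggggtggc
Cped1, chr6:21985880-21985909, plus strand: agaaaaagccttagtttagctCCGCCCcgc
Dlk1, chr12:109452705-109452734, plus strand: ggggggggggggTGACGCAtgatgtcgtcg
Meis1, chr11:19019007-19019036, minus strand: tacttgctgcagcCCAATgcattgtgtaag
Meis2, chr2:116064754-116064783, minus strand: cacttacctagaTATAAAtcctctcctaca
A match of letters describes the sequence and says nothing of binding.

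Among the secreted and surface proteins, the enkephalin precursor gene Penk had log2 levels of 6.98 on high-A, 7.72 on high-B, 11.33 on negative-B and 11.48 on negative-D. The GFP-negative pair lay close together, while high-B stood 0.736 above high-A, a gap reached by 1% of all genes. The log2 difference of means was -4.05 (moderated SE 0.232), a 16.6-fold lower level. Islr stood at 6.28 and 6.39 in the GFP-high group and at 10.43 and 10.44 in the GFP-negative group, an even level within each. Its log2 difference was -4.10 (SE 0.121), 17.2-fold lower, and the gap between the groups was 37.0 times the larger of the differences within a group. Dlk1 had the widest gap of the 8 within the GFP-negative group. It stood at 5.90 on high-A, 5.73 on high-B, 8.53 on negative-B and 9.39 on negative-D. The last 2 were 0.865 apart, a distance reached by 0.733% of all genes. Its log2 difference was -3.15 (SE 0.262), 8.85-fold lower.

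Cygb, the cytoglobin gene, stood at 6.13 and 6.23 in the GFP-high group, at 10.15 on negative-B and at 10.61 on negative-D. The wider spread lay on the GFP-negative side, where kidney D was the higher. The log2 difference was -4.20 (SE 0.172), 18.3-fold lower. Lix1l had the largest difference of the 8, and 4 of the 18820 genes had a larger decrease. Its levels were 6.04 and 6.06 in the GFP-high group, 10.52 on negative-B and 10.12 on negative-D, so here kidney B was the higher of the GFP-negative pair. Its log2 difference was -4.27 (SE 0.159), 19.3-fold lower. Cped1 stood at 5.82 on high-A, 6.22 on high-B, 10.15 on negative-B and 10.38 on negative-D, with kidney B again the higher of the GFP-high pair. Its log2 difference was -4.24 (SE 0.169), 18.9-fold lower.

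The TALE homeobox genes had nearly equal differences but an unequal spread. Meis1 was 6.33 on high-A, 6.40 on high-B, 9.42 on negative-B and 9.41 on negative-D. Arrays of a group were at most 0.073 apart, and the log2 difference was -3.05 (SE 0.120), 8.27-fold lower. Meis2 was 7.45 on high-A, 8.08 on high-B, 10.81 on negative-B and 10.90 on negative-D. The GFP-high pair was 0.633 apart, a gap reached by 2.03% of all genes, with kidney B the higher as for Penk. The log2 difference was -3.09 (SE 0.207), 8.49-fold lower.

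The arrays can also be set against each other singly. In all 32 comparisons of 1 GFP-high with 1 GFP-negative array (8 genes, 4 pairs each) the GFP-high value was lower, from 6.17-fold for Dlk1 (high-A against negative-B) to 23.5-fold for Cped1 (high-A against negative-D). Kidney B is the only letter in both groups. Between its 2 arrays Lix1l was 22.0-fold, Islr 16.5-fold, Cped1 15.2-fold, Cygb 15.1-fold and Penk 12.2-fold lower in GFP-high cells. Meis1 was 8.08-fold, Dlk1 6.96-fold and Meis2 6.61-fold lower. Within kidney B the 2 sets of genes did not overlap, though the order of the strongly lower genes was another. These arrays are among those that chose the genes. Over all 4 pairs the sets did overlap. The smallest fold among the 5 was 12.2 (Penk) and the largest among the 3 was 12.7 (Dlk1). Across all 4 pairs the fold of Dlk1 ran from 6.17 to 12.7 and that of Meis1 from 8.04 to 8.50.

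**Figure D2:**
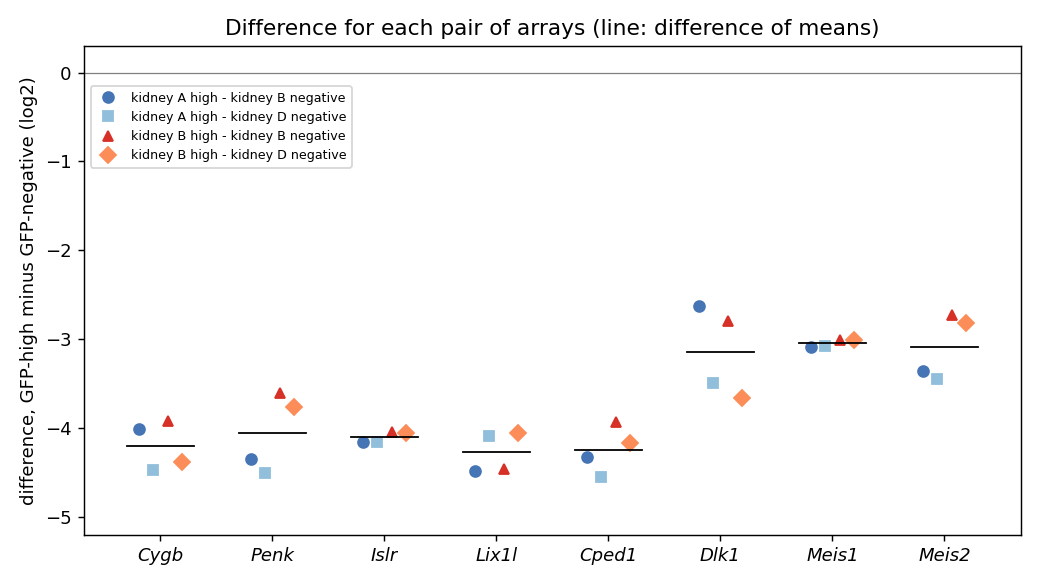
Log2 difference, GFP-high minus GFP-negative (vertical axis), for each of the 4 pairs of arrays and each gene, with a line at the difference of group means. All 32 points lie below 0, those of Meis1 between -3.09 and -3.01 and those of Dlk1 between -3.67 and -2.63.

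Within the GFP-high group, 7 of the 8 genes were higher on kidney B than on kidney A, and Dlk1 was the exception. Penk (0.736), Meis2 (0.633) and Cped1 (0.393) had the larger log2 gaps, and those of Cygb, Islr, Lix1l and Meis1 were at most 0.109. Thus 1 of the 8 genes was higher on high-A than on high-B, beside 44.9% of all genes. The median level over probe sets was 5.07 on high-A and 5.19 on high-B. The signs of gaps of at most 0.109, and counts of such signs, can therefore depend on how the arrays are scaled. Genes of several cell types moved between the same arrays. All 4 measured podocyte markers and 12 of 15 genes of mural and smooth muscle cells were also higher on high-B. So were 17 of 23 fibroblast matrix genes, 15 of 23 stromal transcription factor genes and 14 of 27 stromal signal genes. The summed linear level of the podocyte markers was 117 on high-A, 285 on high-B, 2050 on negative-B and 1000 on negative-D, and that of the mural genes was 749, 1650, 9470 and 5550 in the same order. Between the GFP-negative arrays, 6 of the 8 genes were lower on kidney B, with Dlk1 and Cygb the farthest apart. Lix1l (0.399) and Meis1 (0.0074) were higher there, 2 of the 8 genes beside 52.4% of all genes. All 4 podocyte markers, 10 of 15 mural genes and 14 of 23 stromal transcription factor genes were higher on kidney B. Of the fibroblast matrix genes 5 of 23 were higher there, and of the stromal signal genes 9 of 27. The part of such cells in the values of the 8 genes was not tested.

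**Figure D3:**
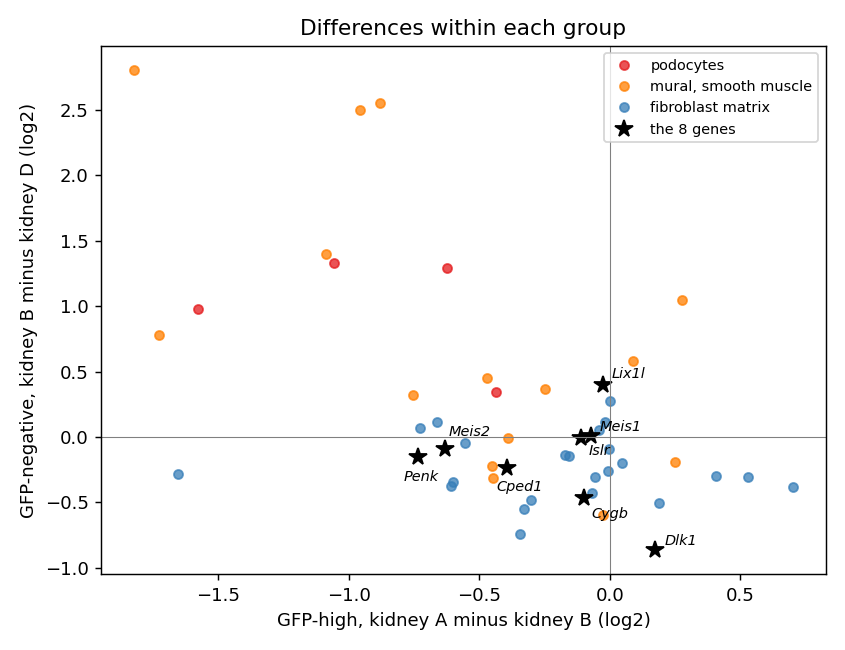
Log2 difference between the 2 GFP-high arrays (horizontal axis, kidney A minus kidney B) and between the 2 GFP-negative arrays (vertical axis, kidney B minus kidney D) for the 8 genes and for genes of 3 lists. Podocyte genes and several mural genes lie to the upper left, with Dlk1 at the lower right (0.174 and -0.865) and Penk at the left (-0.736 and -0.156).

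Profiles over the 4 arrays were compared by the root mean square difference of gene-centred log2 values. Among the 8 genes the closest were Cygb and Cped1 (0.134) and the farthest Lix1l and Dlk1 (0.723). Meis1 and Meis2 were 0.202 apart. Outside the 8, the gene nearest to the mean profile of Cygb, Penk, Islr, Lix1l and Cped1 was Snai2 (0.101), which encodes a zinc finger transcription factor of mesenchymal cells. Next came Gucy1a1 (0.114), a subunit of soluble guanylate cyclase, the adhesion protein gene Clmp (0.149), the sphingosine-phosphate receptor gene S1pr3 (0.161) and Osr1 (0.162), a transcription factor gene of early kidney mesenchyme. Snai2 had log2 levels of 5.75 and 5.77 in the GFP-high group and 9.80 and 9.88 in the GFP-negative group. Dlk1, whose GFP-negative arrays were far apart, had as its nearest genes Igf1 (0.090), Keg1 (0.093) and Adh1 (0.101), all 3 of them higher on negative-D than on negative-B. Igf1, the insulin-like growth factor gene, was at 8.39 on negative-B and 9.06 on negative-D. Meis1 was nearest to Adam23 (0.044), Snap91 (0.046) and Rspo3 (0.051), the last an R-spondin gene whose product binds Lgr receptors. Rspo3 was at 4.27 and 4.46 in the GFP-high group and 7.49 and 7.45 in the GFP-negative group. Meis2 was nearest to Npy (0.031), Ogn (0.053) and Maf (0.061), and all 3 were higher on high-B than on high-A. Genes picked as nearest to Dlk1 or Meis2 share their wide gaps by that choice, so the shared direction is no separate result. These distances rest on 4 arrays and are a description.

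The 8 genes are called interstitial, and defining genes of the interstitium differed in the same direction. Foxd1, the gene of the stromal progenitors, had log2 levels of 2.94 and 3.26 in the GFP-high group, below the background level of 4.24, and 6.11 on negative-B and 5.29 on negative-D (limma adjusted p = 0.0004579). Its log2 difference was -2.60, and without high-A it was -2.44 (0.0755) and without high-B -2.75 (0.0579), which did not pass. Pdgfra, a receptor gene of interstitial fibroblasts, was 5.31-fold lower, from a GFP-negative mean of 9.30 to a GFP-high mean of 6.89. Of 23 measured stromal transcription factor genes, 19 were lower and 4 did not pass, with a list median of -2.46 on the log2 scale beside 0.051 for all genes. Osr1 was 18.3-fold lower (adjusted p = 1.258e-05), Snai2 16.9-fold (1.106e-05) and Tcf21, a factor of stroma and podocytes, 15.6-fold (1.935e-05). Lef1, Nr2f1, Foxf2 and Tcf4 did not pass, with log2 differences of 0.05, 0.11, -0.18 and -0.38, though Tcf4 did after cyclic loess (adjusted p = 0.04851) and with a trended prior (0.02753). Of the 19, 15 passed with each of the 4 arrays left out in turn.

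Signals and receptors of the stroma were less uniform. Of 27 measured, 20 were lower, 2 higher and 5 did not pass, and the list median was -1.41. Bmp4, Wnt5a, Aldh1a2, Kitl and Sfrp2 did not pass, with log2 differences of -0.29, -0.23, -0.18, 0.19 and 0.51. Aldh1a2 was at 10.24 in the GFP-high group against 10.41, and Sfrp2 at 12.10 against 11.59 (limma adjusted p = 0.05002). Pdgfrb, the receptor gene of pericytes and fibroblasts, was 13.4-fold lower (adjusted p = 3.956e-05), Ngfr, the low-affinity neurotrophin receptor gene, 11.1-fold (7.515e-05) and Igf1 9.48-fold (8.644e-05). Aldh1a3, which encodes a retinoic acid-producing enzyme, was 2.94-fold higher at 7.87 ± 0.666 against 6.31 ± 0.135 (SD, n = 2 each, limma adjusted p = 0.007533). It did not pass without high-A (0.0537), negative-B (0.124) or negative-D (0.154). The count of 20 lower genes fell to 12 without high-A and 11 without high-B. The count of 2 higher genes was 1 without high-B or negative-D and 0 without high-A or negative-B.

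All 23 measured matrix genes of fibroblasts were lower, with a list median of -2.90. Sparcl1, a matricellular protein gene, was 19.3-fold lower, at 6.07 on both GFP-high arrays, 10.48 on negative-B and 10.20 on negative-D. Postn, which encodes periostin, was 15.7-fold lower (adjusted p = 3.866e-05) and Col6a3, a collagen VI chain gene, 12.5-fold lower (1.258e-05). Of the 23, 19 passed with each array left out in turn. Across the 3 interstitial lists, 62 of 73 genes were lower, 2 higher and 9 did not pass, with a median of -2.28. These lists were written with earlier results of these arrays known, so they are not independent evidence of a direction.

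Genes of other cells in the GFP-negative fraction were also lower. Of 15 measured genes of mural and smooth muscle cells 13 were lower, among them Gucy1a1 (20.3-fold, adjusted p = 1.69e-05) and the smooth muscle myosin gene Myh11 (8.32-fold, 0.02483). The potassium channel gene Kcnj8 was also lower (2.313e-05), at 7.22 and 7.23 in the GFP-negative group and below the background level of 4.24 on both GFP-high arrays, so no fold is given. Myh11 was at 9.54 on negative-B but 6.99 on negative-D, and passed without the latter (0.014) but not without high-A (0.327), high-B (0.209) or negative-B (0.0938). The mural count of 13 fell to 5 without high-A, to 8 without high-B and to 8 without negative-B. Of 10 endothelial genes 9 were lower, led by Emcn (9.23-fold), Cldn5 (8.38-fold) and Cdh5 (7.13-fold), and the count fell to 3 without high-A and 4 without high-B. All 8 nephron progenitor genes were lower, with a list median of -3.5, below that of each interstitial list. Six2 was 27.1-fold and Itga8 23.7-fold lower, and Osr1, also counted among the stromal transcription factors, 18.3-fold. The list median was -2.6 for mural, -1.23 for endothelial and -2.5 for podocyte genes. All 4 measured podocyte genes were lower, led by Ptpro (10.1-fold, adjusted p = 0.002294), Podxl (8.97-fold, 0.004346) and Nphs1 (3.59-fold, 0.01687). That count of 4 was 0 without high-A, 2 without high-B, 1 without negative-B and 3 without negative-D.

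Blood and nerve markers were dim or mostly did not pass. Of 9 leukocyte genes 1 passed, the lysosomal gene Cd68, 1.46-fold lower at 7.56 against 8.11 (adjusted p = 0.03381). Cd68 did not pass with any 1 array left out (0.0811 to 0.241) or with median centring (0.05171). The defining leukocyte genes Ptprc and Csf1r lay between 4.22 and 4.83 on every array and did not pass. Of 4 measured neuronal and Schwann cell genes 1 passed, Elavl4, an RNA-binding protein gene of neurons, at 5.82 in GFP-negative cells and below background on both GFP-high arrays (7.361e-05). The red cell genes Alas2 and Slc4a1 lay near background in both groups (adjusted p = 0.3566 and 0.419). In the other direction, all 6 epithelial genes and all 5 genes of the thick ascending limb of the loop of Henle were higher, with medians of 2.02 and 3.59. Grhl2 (12.5-fold), Esrp1 (10.8-fold) and Epcam (4.30-fold) led the epithelial genes, and Slc12a1 (33.9-fold), Umod (32.7-fold) and Cldn19 (12.1-fold) those of the thick ascending limb.

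**Figure D4:**
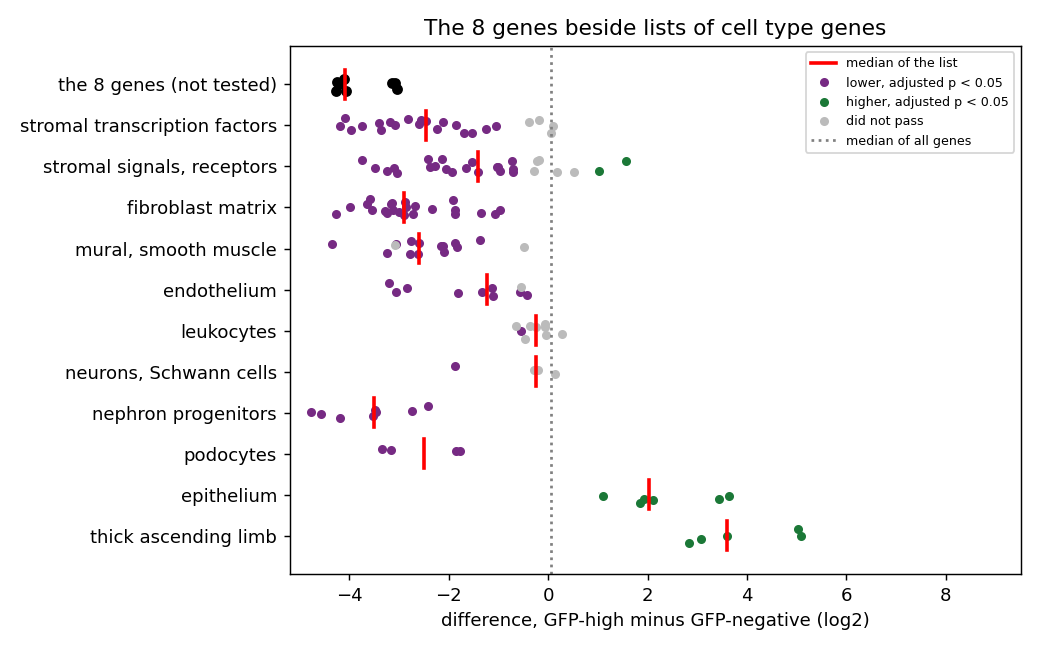
Log2 difference, GFP-high minus GFP-negative (horizontal axis), of the 8 genes and of each gene on the cell type lists, with list medians in red and the median of all genes dotted. The 8 genes lie between -4.27 and -3.05, alongside the lower ends of the interstitial, mural, endothelial, nephron progenitor and podocyte lists. The epithelial lists lie to the right of 0.

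Relatives of the 8 genes were counted beside all genes, of which 19.2% passed in either direction, and shares near that are no result about a family. Of 9 close paralogues 2 were lower (Meis3 and Lix1), 1 was higher (Mb) and 6 did not pass, with a median of -0.06. Among the opioid precursor genes beside Penk, Pdyn lay between 3.38 and 3.64, Pomc between 3.66 and 3.84 and Pnoc between 3.87 and 4.31 over the 4 arrays, all near background, and none passed (adjusted p = 0.7824, 1 and 0.2895). The opioid receptor genes Oprd1, Oprm1, Oprk1 and Oprl1 were below 4.24 on all 4 arrays and did not pass. Of 14 measured genes of the opioid system other than Penk, 2 were lower, 1 higher and 11 did not pass, with a median of 0.01, a share of calls close to the 19.2% of all genes. Ace, which encodes a peptidase that can also degrade enkephalins, was 5.42-fold lower (adjusted p = 0.0004394) and Cpe, a carboxypeptidase gene of prohormone processing, 2.78-fold lower (0.004747). Anpep, an aminopeptidase gene, was 2.50-fold higher (0.002573). Without high-A or high-B these 3 did not pass (0.0746 and 0.0663 for Ace, 0.123 and 0.0594 for Cpe, 0.12 and 0.0883 for Anpep), nor did Cpe without negative-B (0.108).

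Of the globins beside Cygb, neuroglobin (Ngb) was at 4.39 against 4.51 and did not pass (adjusted p = 0.655). Myoglobin (Mb) was at 4.58 ± 0.0342 against 4.05 ± 0.197 (SD, n = 2 each), higher in GFP-high cells but below background on both GFP-negative arrays (limma adjusted p = 0.03677). Cyb5a, a cytochrome b5 gene whose product can reduce cytoglobin, was 1.46-fold higher (0.0212), and Cyb5r3, its reductase, did not pass at 11.04 against 11.23. Neither Mb (0.0827 to 0.233) nor Cyb5a (0.0809 to 0.156) passed with any 1 array left out, nor with the array number as a block (0.07362 and 0.0537). Of 8 measured globin and reductase genes those 2 were higher and 6 did not pass, with a median of 0.11, beside 19.2% of all genes passing.

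Meis3, the remaining Meis gene, was lower by 2.50-fold, at 6.47 on high-A, 6.27 on high-B, 7.74 on negative-B and 7.65 on negative-D (limma adjusted p = 0.0004285), and passed with each array left out. Among 9 measured TALE partners 4 were lower, 1 higher and 4 did not pass, with a median of -0.24, beside 19.2% of all genes passing. Pknox2 was 3.32-fold lower (0.001562) and Mkx 1.76-fold lower (0.003753), while Pbx4 was 1.54-fold higher (0.009829). Pbx2 and Pbx3, which encode partners of Meis proteins, did not pass, at 8.93 against 8.96 and 9.56 against 9.67. Pknox2 did not pass without negative-B (0.0713) or negative-D (0.0577), and neither Mkx (0.05 to 0.0726) nor Pbx4 (0.0828 to 0.0964) passed with any 1 array left out. The count of 4 lower partners was 2 without high-A or high-B and 1 without negative-B or negative-D.

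Islr2, the closest relative of Islr and also its neighbour on the chromosome, lay below background at 3.28 against 3.35 and did not pass (adjusted p = 0.8091). Among 16 measured genes of leucine-rich repeat and immunoglobulin domain proteins other than Islr, 7 were lower, 1 higher and 8 did not pass. Their median was -0.43, and 19.2% of all genes passed in either direction. Lrrn2 was 4.20-fold lower (4.888e-05). Lrrn3 (0.0008268) and Lrrc4c (0.01633) were also lower, with GFP-negative means of 5.04 and 4.84 and both GFP-high arrays below background. Lrig1, an inhibitor of ErbB receptors, was 1.37-fold higher (0.03834). Lrrn3 did not pass without high-A (0.0675) or high-B (0.0524), and neither Lrrc4c (0.082 to 0.21) nor Lrig1 (0.119 to 0.203) with any 1 array left out. The count of 7 lower genes was 1 without high-A or high-B and 3 without negative-B or negative-D. Lix1, the relative of Lix1l, was 3.30-fold lower at 5.31 on high-A, 4.36 on high-B, 6.42 on negative-B and 6.69 on negative-D (limma adjusted p = 0.005522). It did not pass without high-B (0.0537), negative-B (0.1) or negative-D (0.135).

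Dlk2, the paralogue of Dlk1, lay at background in both groups, 4.24 against 4.18, and did not pass (adjusted p = 0.8617). Dlk1 belongs to an imprinted cluster, from which Meg3, a noncoding RNA gene expressed from the other parental copy, was lower. Meg3 was at 4.72 on high-A, 5.10 on high-B, 7.01 on negative-B and 8.03 on negative-D, 6.10-fold lower (limma adjusted p = 0.001118), with kidney D the higher of the GFP-negative pair as for Dlk1. Rian and Dio3 of the same cluster lay below background and did not pass (0.2224 and 0.4151). Of 20 measured imprinted genes other than Dlk1, 9 were lower, 1 higher and 10 did not pass. Their median was -0.24, and 19.2% of all genes passed in either direction. Igf2, the fetal growth factor gene, was 6.49-fold lower (2.194e-05) and Plagl1, a zinc finger factor gene, 2.66-fold lower (0.0004583), while Phlda2 was 1.74-fold higher (0.01968). Meg3 did not pass without high-A (0.108) or high-B (0.0788), nor did Phlda2 with any 1 array left out (0.0719 to 0.204). The count of 9 lower genes was 2 without high-A, 4 without high-B, 4 without negative-B and 5 without negative-D.

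Genes next to the 8 on the chromosomes were examined because their choice does not use their values. For each gene the nearest 4 measured protein-coding neighbours (2 on either side) were taken from the RefSeq gene table, 32 in all. The gaps ran from 0 bases (Prcd beside Cygb) to 1611252 bases (C1d beside Meis1), so some neighbours were distant. Their median log2 difference was 0.001, 28 did not pass, 3 were lower and 1 higher, beside 19.2% of all genes that passed in either direction. Stra6, near Islr and the gene of a retinol-binding protein receptor, was 2.96-fold lower at 5.09 on high-A, 4.94 on high-B, 6.56 on negative-B and 6.60 on negative-D (limma adjusted p = 0.0001612), and passed with each array left out. Fam110b, 1505194 bases from Penk, was 2.17-fold lower (0.003576), and Rhbdf2, 18635 bases from Cygb, 1.59-fold lower (0.01492). Tspan12, near Cped1, was 2.39-fold higher (0.00194) at 8.16 on high-A, 8.51 on high-B, 7.23 on negative-B and 6.93 on negative-D. Wnt16, also near Cped1, was at 4.13 against 4.44 and did not pass (0.1495). Fam110b did not pass without high-A (0.0674), negative-B (0.0683) or negative-D (0.0897), Tspan12 without high-B (0.0714) or negative-D (0.0582), and Rhbdf2 with any 1 left out (0.0731 to 0.161). No neighbour of Lix1l, Dlk1, Meis1 or Meis2 passed.

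**Figure D5:**
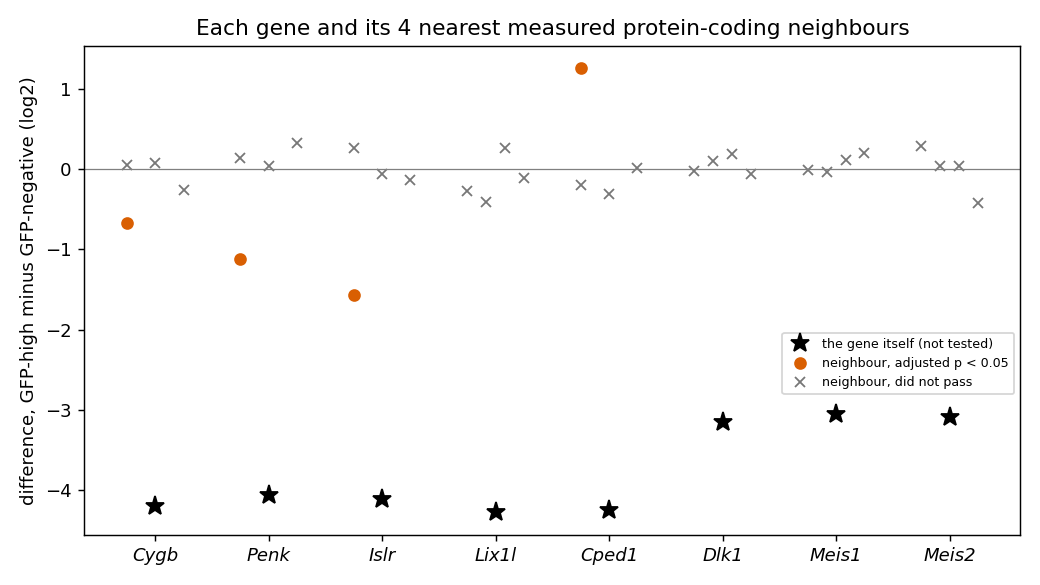
Log2 difference, GFP-high minus GFP-negative (vertical axis), of each of the 8 genes (stars) and of its 4 nearest measured protein-coding neighbours (orange where limma adjusted p was below 0.05, grey crosses otherwise). The neighbours lie between -1.56 and 1.26, all above the gene they adjoin.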

How the data were processed

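Total RNA of 4 samples was labelled with biotin by a whole-transcript kit and hybridised to Affymetrix arrays, per the labels' protocols. The values are log2 levels as the authors deposited them. The sources used here do not state the background correction, probe set summary or normalization, nor whether the arrays were scaled to each other. No column was left unused (0). Groups come from the sample descriptions. The members, lists, rules and background reference were chosen with earlier results of these data known.

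Probe sets were named through the platform annotation. Of 35556, 21218 named 1 gene, 1881 several and 12457 none here. The highest-mean probe set stood for a gene, which left 18820 genes.

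The test was limma 3.58.1 (lmFit, eBayes) in R 4.3.3, group as the only term, two-sided, adjusted over all genes at 0.05, with 2 residual and 5.11 prior degrees of freedom. SE is the moderated standard error, and fold means 2 raised to the size of the log2 difference. The 18 lists were described by counts of called genes and medians. Named list genes are the 3 called ones with the largest difference in the prevailing direction and the largest in the other (the 2 largest where none was called). Defining markers and genes that did not pass were added after their values were seen. Likeness left out predicted and clone-like symbols. A planned description of proteins was not made.

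The test was also run on 20 simulated sets of arrays for GFP-high against GFP-negative (18820 genes). It recovered 1.8% of genes given a log2 change of 0.5, 72.8% at 1 and 99.3% at 2, and 4.78% of its calls were unchanged genes. The number of changed genes was set at 200, beside 3620 genes called in the real contrast. Such rates depend on that number, so they need not hold for these data.

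Array numbers and kidney letters pair the arrays differently, so no block was used. Only the letter B is in both groups, so a block by letter joined high-A with negative-D although their letters differ. Alternatives were the array number and the kidney letters as a block, 3 other scalings, 2 filters on dim genes, a trended robust prior, kidney B alone, the mean of a gene's probe sets and leaving out each array.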

Additional observations from a re-analysis of the deposited data

How the results depend on the processing

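No called result turned its direction under the alternatives run. The median log2 difference of the 8 genes was -4.08 as reported, -3.98 with median centring, -3.76 between the arrays of kidney B alone and -4.20 to -3.87 with 1 array left out. By gene, leaving out 1 array gave -4.42 to -3.69 for Penk and -3.58 to -2.71 for Dlk1, but -3.08 to -3.01 for Meis1. Of 18820 genes 1520 were called higher and 2100 lower. Testing only genes above the median level, 1192 were called lower, and 12 in place of 19 stromal transcription factors, since fewer genes were tested. With 1 array left out 387 to 603 genes were higher and 729 to 1148 lower, and of the stromal signals 0 to 1 were higher in place of 2 and 11 to 16 lower in place of 20. With quantile normalization, median centring, cyclic loess, either filter or the trended robust prior, 3 stromal signal genes were higher in place of 2. With the array number as a replicate block 1140 of all genes were higher and 1819 lower. With a block that joined the kidney B arrays, and high-A with negative-D, it was 1763 and 2339. Deviations from the group means correlated over genes at -0.20 for the number. With 2 arrays a group the value for the letter, 0.20, is the same value with its sign turned, which does not settle a pairing. The replicate block ended the calls of Cd68, Mb, Cyb5a and Lrig1 (adjusted p = 0.07338, 0.07362, 0.0537 and 0.0874) among the named genes. The trended robust prior ended those of Myh11, Podxl and Lrig1 (0.222, 0.08847 and 0.05217). The cause was not tested.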
